A study of Mus musculus with 4 samples.

Results

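Immune transcripts were present at low levels in RNA-seq libraries of denuded mouse oocytes, and 10 of them are described here: C1qa, C1qb, C1qc, Csf1r, Cx3cr1, Ctss, Lyz2, Mrc1, Ccl3 and Cd14. They were taken by gene name from the 26631 rows of the deposited table, and all 10 were measured. The genes had been picked because earlier work on these values showed that macrophage transcripts moved with single libraries whereas Ccl3 moved with treatment, so their differences between libraries and between groups are descriptions and carry no test. Oocytes of wild type C57BL/6 animals aged 24 postnatal days were stripped of cumulus cells and cultured with HDACi 4b, an inhibitor of the histone deacetylase HDAC3, or with DMSO as control. With 2 libraries per group, values are given for control replicate 1, control replicate 2, HDACi 4b replicate 1 and HDACi 4b replicate 2. The methods state that RNA came from a pool of oocytes per group, and the labels name denuded oocytes as the cell type but ovaries in the extraction note. Neither source says that replicates were separate animals or cultures, so the spread between them may be technical.

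Macrophages are among the most abundant immune cells of the ovary, where they lie around follicles and clear dying cells. They make C1q, the recognition molecule of the classical complement pathway, in which the A, B and C chains assemble in equal numbers. They depend on the receptor CSF1R for survival, digest what they engulf with lysosomal enzymes such as cathepsin S and lysozyme, sense bacterial lipopolysaccharide through CD14, and attract other leukocytes with chemokines such as CCL3.

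The C1q genes lie side by side on the minus strand of chromosome 4 of GRCm38, C1qb at 136880129 to 136886187, C1qc at 136889804 to 136893065 and C1qa at 136895917 to 136898803. Ccl3 lies on the minus strand of chromosome 11 at 83647844 to 83649355. The sequences upstream of C1qb, C1qc and Ccl3 are printed because C1q chains differed between replicates, whereas Ccl3 differed between groups. They are from RefSeq on GRCm38.p6 and read 5′ to 3′ along the gene's strand. Capitals mark GAGGAA, or TTCCTC where it stands on the other strand, letters found in binding sites of PU.1, a transcription factor of the macrophage lineage. The windows are chr4:136886201-136886450 for C1qb, chr4:136893066-136893164 for C1qc and chr11:83649379-83649628 for Ccl3.
C1qb: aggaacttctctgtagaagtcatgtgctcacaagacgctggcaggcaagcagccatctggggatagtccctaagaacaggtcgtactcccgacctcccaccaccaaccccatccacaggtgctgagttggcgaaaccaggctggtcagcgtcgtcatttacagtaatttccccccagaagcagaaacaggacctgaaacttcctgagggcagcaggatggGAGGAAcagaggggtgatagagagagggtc
C1qc: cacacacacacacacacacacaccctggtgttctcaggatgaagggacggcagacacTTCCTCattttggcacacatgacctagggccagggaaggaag
Ccl3: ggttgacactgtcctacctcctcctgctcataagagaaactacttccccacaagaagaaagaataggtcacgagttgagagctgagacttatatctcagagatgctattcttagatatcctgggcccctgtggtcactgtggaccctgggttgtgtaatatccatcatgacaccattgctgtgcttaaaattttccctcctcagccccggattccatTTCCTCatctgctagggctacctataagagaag
Counted from the RefSeq start of each gene, which differs from the gene end in GENCODE M21 given above, the letters began at base -30 for C1qb, -193 for C1qc and -33 for Ccl3. The C1qc window covers bases -250 to -152 only, since the bases after it lie inside the gene as GENCODE M21 gives it. Both kinds of gene thus held them. Of the 10 genes, 7 had an entry in the table of promoters, and 5 of these (C1qb, C1qc, Ctss, Mrc1 and Ccl3) held the letters on either strand in the 250 bases before the start, whereas Cx3cr1 and Lyz2 did not. Among all 32851 promoters 23.3% did. A match is a description of the letters and not a bound site.

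The libraries held 13478189 to 14903547 reads, as recovered from the values, and 9461 genes had a mean of at least 1 RPKM (reads normalised to exon length and library size) and were tested, all 10 among them. The 10 oocyte markers checked, such as Zp3 and Gdf9, summed to 7891 to 9693 RPKM. The 10 immune transcripts summed to 81.4 to 270 RPKM. Granulosa markers summed to 6.12 to 7.32 RPKM, mostly Cyp19a1 and Nr5a2, whereas Inha had 1 to 5 reads per library and Foxl2 had 1 read in a single library. With limma and Benjamini-Hochberg adjustment at 0.05, 0 genes were higher with HDACi 4b (0.00% of the tested genes) and 0 were lower (0.00%), and 0 of the 10 were called. At an unadjusted p under 0.05, limma had 136 genes higher (1.44%) and 132 lower (1.40%), and limma-voom on recovered reads had 102 and 121 and called 0 after adjustment. A permutation test of 2 against 2 libraries cannot go below p = 0.333.

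The C1q chains were highest in HDACi 4b replicate 1 and low in both libraries labelled replicate 2, of which that of HDACi 4b was lowest in RPKM and that of control after the scaling used in the fit. C1qa, the A chain, stood at 33.3 and 9.42 RPKM in the control libraries (replicates 1 and 2 in that order here and below) and at 74.4 and 8.12 RPKM in the treated (HDACi 4b) pair, again replicate 1 first. The groups overlapped on either scale, and the scaled levels of the low libraries were 8.18 in control replicate 2 and 8.78 in HDACi 4b replicate 2. Within the HDACi 4b group replicate 1 was 9.16-fold higher than replicate 2 (95% exact counting interval 7.58 to 11.2), and within the control group 3.54-fold higher (2.91 to 4.32). The log2 fold change of HDACi 4b against control was 0.54 (SE 1.04). In these bulk libraries, fewer cells of a type and less RNA per cell cannot be told apart.

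C1qc, the C chain, had the widest range of the 10. Its levels were 6.19 and 0.845 RPKM in the control libraries and 17.7 and 0.698 RPKM in the treated pair, from 169, 22, 510 and 19 reads. Replicate 1 was far above replicate 2 in both groups, by 7.32-fold (4.68 to 12.0) in the controls and 25.4-fold (16.1 to 42.5) in the treated pair. Its log2 fold change between groups was 0.68 (SE 1.49), smaller than that error.

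C1qb, the B chain, was the most abundant of the 10 and varied least among the C1q chains. It stood at 62.5 and 51.4 RPKM in the control libraries and at 87.8 and 46.9 RPKM in the treated pair. The order of the libraries was that of C1qa, but the replicate folds were only 1.21 (1.10 to 1.34) and 1.87 (1.71 to 2.05). Between groups C1qb had a log2 fold change of 0.25 (SE 0.32).

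The chains therefore did not keep a fixed ratio. C1qb over C1qa in RPKM was 1.87 (1.68 to 2.09) and 5.46 (4.53 to 6.62) in the control libraries, and 1.18 (1.09 to 1.28) and 5.78 (4.75 to 7.07) in the HDACi 4b libraries. Both libraries labelled replicate 2 had ratios whose intervals overlapped, and both lay above the libraries labelled replicate 1. C1qb over C1qc spread further, from 4.95 (4.47 to 5.49) in HDACi 4b replicate 1 to 67.2 (42.7 to 112) in HDACi 4b replicate 2. C1qc over C1qa lay at 0.186 and 0.238 in replicates 1 of control and HDACi 4b and at 0.0898 and 0.0860 in replicates 2. Thus where C1qa and C1qc were lowest, C1qb remained at 46.9 to 51.4 RPKM. The intervals cover counting error only.

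**Figure D1:**
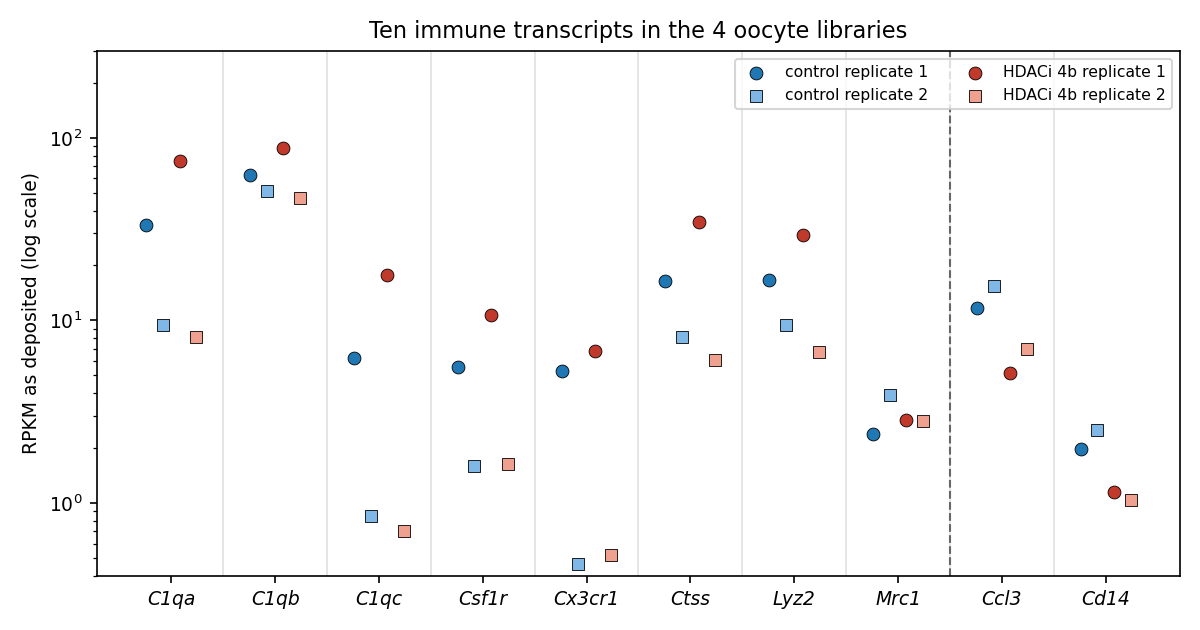
RPKM (log axis) of each of the 10 immune transcripts in the 4 libraries, 1 point per library, with control and HDACi 4b libraries distinguished by colour and replicates by symbol. C1qc ran from 0.698 to 17.7 RPKM with overlapping groups, whereas for Ccl3 and Cd14 both HDACi 4b libraries lay below both controls.

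The macrophage receptors Csf1r and Cx3cr1 also separated the replicates. Csf1r (chromosome 18, 61100598 to 61132149, plus strand) encodes the receptor for colony stimulating factor 1 and interleukin 34. It stood at 5.57 and 1.59 RPKM in the control libraries and at 10.7 and 1.64 RPKM in the treated pair. Both libraries labelled replicate 2 were low and nearly level, and the groups overlapped. Replicate 1 was 3.49-fold (2.81 to 4.38) above replicate 2 in the controls and 6.49-fold (5.32 to 7.98) in the treated pair. The log2 fold change between groups was 0.54 (SE 0.92). Csf1r shares 873 of its 5774 annotated exonic bases with Hmgxb3 on the opposite strand. Whole reads were obtained at a length of 4885 bases, and whether the shared bases were counted is not given in the sources used here.

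Cx3cr1 (chromosome 9, 119901616 to 120069879, minus strand), the receptor for the chemokine fractalkine, was low in both libraries labelled replicate 2. Its levels were 5.27 and 0.461 RPKM in the control libraries and 6.81 and 0.520 RPKM in the treated pair, from 336, 28, 457 and 33 reads. The high libraries of the groups lay close to each other, as did the low ones. The replicate folds were 11.4 (7.77 to 17.5) in the controls and 13.1 (9.19 to 19.3) in the treated pair, and the log2 fold change between groups was 0.30 (SE 1.38). It shares 78 of 4505 exonic bases with Gm33858 on the opposite strand.

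The lysosomal genes were also highest in HDACi 4b replicate 1, with smaller steps than C1qa. Ctss (chromosome 3, 95526786 to 95556403, plus strand), cathepsin S, a protease that trims the invariant chain for antigen presentation, stood at 16.3 and 8.14 RPKM in the control libraries and at 34.5 and 6.06 RPKM in the treated pair. Lyz2 (chromosome 10, 117277331 to 117282321, minus strand), the lysozyme of myeloid cells, which cleaves bacterial cell walls, stood at 16.7 and 9.42 RPKM in the control libraries and at 29.4 and 6.69 RPKM in the treated libraries. HDACi 4b replicate 1 was highest and replicate 2 lowest for both genes on either scale. In RPKM 5 of the 10 (the C1q chains, Ctss and Lyz2) shared 1 order of libraries, which 3.50% of the tested genes had. After scaling the C1q chains instead had the order of Csf1r and Cx3cr1, again 5 of the 10, which 4.40% of the tested genes had. Within the treated pair the fold was 5.70 (4.68 to 6.996) for Ctss and 4.39 (3.61 to 5.38) for Lyz2. Within the controls it was 2.01 (1.65 to 2.46) for Ctss and 1.77 (1.47 to 2.15) for Lyz2. The log2 fold changes between groups were 0.39 (SE 0.76) for Ctss and 0.23 (SE 0.65) for Lyz2.

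Unlike the C1q chains, these enzymes kept a near constant ratio. Lyz2 over Ctss was 1.02 (0.871 to 1.20) and 1.16 (0.922 to 1.45) in the control libraries, and 0.850 (0.760 to 0.951) and 1.10 (0.849 to 1.43) in the HDACi 4b libraries. All 4 intervals overlapped at 0.922 to 0.951. Lyz1, a close copy of Lyz2 that could share its reads, was listed at 2 reads in control replicate 1 and at 0 in the other 3 libraries.

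Mrc1 (chromosome 2, 14229392 to 14332057, plus strand), the mannose receptor of tissue macrophages, did not take part in this pattern. It stood at 2.37 and 3.92 RPKM in the control libraries and at 2.83 and 2.83 RPKM in the treated pair. Both treated libraries lay between the controls, and control replicate 2 was highest. The replicate fold was 0.605 (0.507 to 0.720) in the controls and 1.001 (0.840 to 1.19) in the treated pair. Between groups the log2 fold change was -0.04 (SE 0.22).

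On the scaled log2 levels of the fit, 6 of the 10 genes (C1qa, C1qc, Csf1r, Cx3cr1, Ctss and Lyz2) were more than 2-fold higher in HDACi 4b replicate 1 than in replicate 2, against 2.44% of the tested genes. These 6 were also more than 2-fold higher in control replicate 1 than in replicate 2, against 1.97% of the tested genes, although Lyz2 stayed below this in RPKM. Since these values led to the choice of the genes, nothing is read from the counts. The 6 genes summed to 83.4 and 29.9 RPKM in control replicates 1 and 2 and to 173 and 23.7 RPKM in the treated pair. Ccl3 and Cd14 together ran otherwise, at 13.7 and 18.0 RPKM in the controls and 6.32 and 7.99 RPKM in the treated libraries.

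Ccl3, a chemokine that attracts leukocytes, was lower in both HDACi 4b libraries than in both controls. It stood at 11.7 and 15.5 RPKM in the control libraries and at 5.17 and 6.95 RPKM in the treated pair, from 127, 160, 59 and 75 reads. The groups did not overlap, and replicate 1 was the lower library in each. The mean was 13.6 ± 2.67 RPKM in the controls and 6.06 ± 1.26 RPKM after HDACi 4b (SD, n = 2 each). The log2 fold change was -1.09 (SE 0.22), a fold of 0.471. HDACi 4b replicate 1, which had the most C1qa, Csf1r and Ctss, had the least Ccl3.

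Cd14 (chromosome 18, 36725067 to 36726798, minus strand), the co-receptor that hands lipopolysaccharide to TLR4, was the other gene with separate groups. It stood at 1.98 and 2.50 RPKM in the control libraries and at 1.15 and 1.04 RPKM in the treated pair. These levels rested on 44, 53, 27 and 23 reads, fewer in sum than for any other of the 10 genes. The replicate intervals included 1 in both groups, with folds of 0.791 (0.518 to 1.20) and 1.11 (0.613 to 2.03). The log2 fold change was -0.90 (SE 0.25), a fold of 0.537.

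Of the 10 genes, 2 (Ccl3 and Cd14) thus had both HDACi 4b libraries below both controls in RPKM, whereas 16.8% of the tested genes did, and 14.4% did after the scaling used in the fit. In 0 of the 10 were both HDACi 4b libraries above both controls (6.60% of the tested genes). The other 8 had groups that overlapped on either scale. The sum of squares of the log2 levels over the 4 libraries was split into a part between groups and parts within them. The part between groups was 87.6% for Ccl3 and 99.998% for Cd14. The scaled replicates of Cd14 were nearly equal, closer than the counting intervals of their folds, 0.518 to 1.20 and 0.613 to 2.03. As deposited, their log2 differences (replicate 1 minus 2) were -0.32 in the controls and 0.14 in the treated pair. The part between groups was 11.6% for C1qb and 0.728% to 5.35% for the other 7, with a median of 19.4% over the tested genes. Within the treated pair, Lyz2, Ctss and C1qc had 72.8%, 72.4% and 64.8% of their sum of squares.

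**Figure D2:**
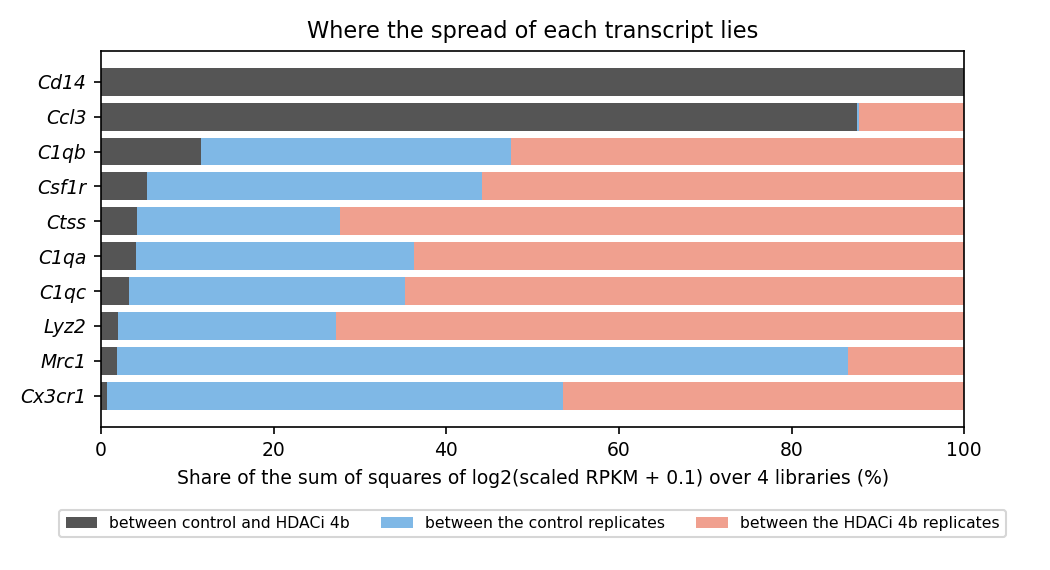
Share (%) of each gene's sum of squares on the log2(RPKM + 0.1) scale, after scaling of the libraries, that lay between control and HDACi 4b, within the control pair and within the HDACi 4b pair, 1 bar per gene adding up to the whole. The share between groups was 87.6% for Ccl3 and at most 11.6% for the 8 genes whose groups overlapped.

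The level of Ccl3 relative to a macrophage receptor depended on the library. Ccl3 over Csf1r in RPKM was 2.10 (1.71 to 2.58) and 9.72 (7.55 to 12.6) in the control libraries, and 0.485 (0.366 to 0.632) and 4.23 (3.12 to 5.72) in the HDACi 4b libraries. None of the 4 intervals overlapped. HDACi 4b replicate 1 was lowest and control replicate 2 highest, and control replicate 1 lay below HDACi 4b replicate 2, so the groups overlapped. Cd14 over Csf1r had the same order, at 0.355 (0.254 to 0.486), 1.57 (1.11 to 2.20), 0.108 (0.0708 to 0.159) and 0.633 (0.385 to 0.997) in the control and then the HDACi 4b libraries.

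**Figure D3:**
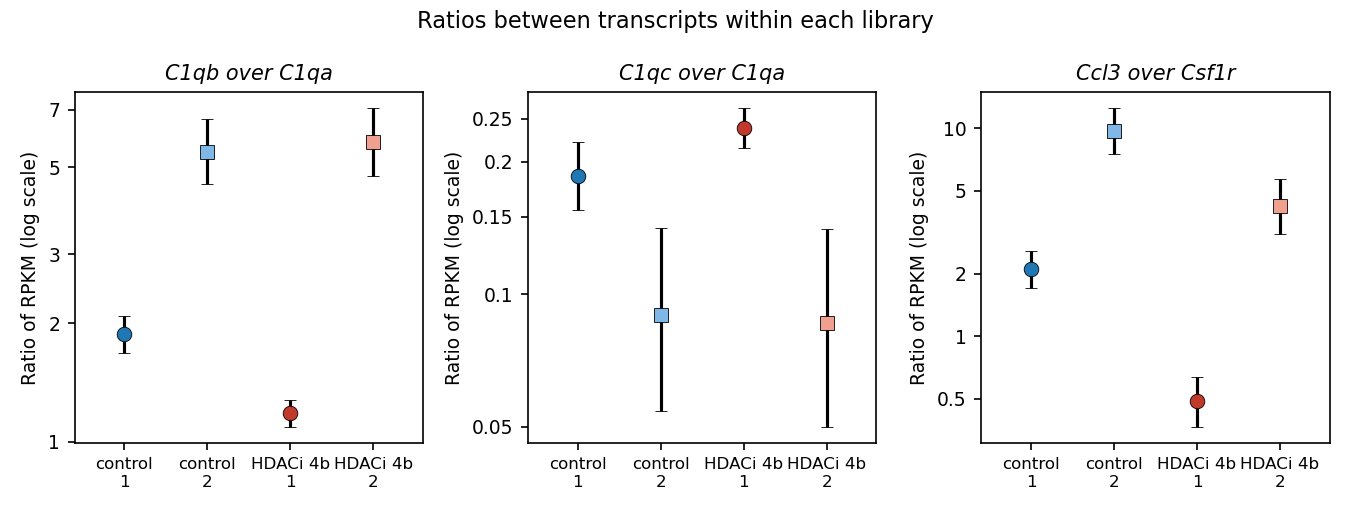
Ratios of RPKM values (log axis) of C1qb over C1qa, C1qc over C1qa and Ccl3 over Csf1r, 1 panel each, in the 4 libraries, with 95% exact counting intervals as bars. C1qb over C1qa ran from 1.18 in HDACi 4b replicate 1 to 5.78 in HDACi 4b replicate 2, and Ccl3 over Csf1r from 0.485 to 9.72.

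Among other chemokines and their receptors, 14 of 16 listed genes were measured and 4 were tested, with 0 called in either direction, 1 positive and 3 negative log2 fold changes and a median of -0.12. Without control replicate 2, 2 of 3 were positive and the median was 0.28. The median over all tested genes was -0.0013, and 49.7% of them were positive. Ccl4, a close relative of Ccl3, stood at 2.79 and 5.06 RPKM in the control libraries and at 0.813 and 1.94 RPKM in the treated pair, from 26, 45, 8 and 18 reads. Its libraries had the order of Ccl3, and the groups did not overlap. Both HDACi 4b libraries lay below both controls in 16.8% of the tested genes. The groups of Ccl9 did not overlap in RPKM either, but did after scaling. The log2 fold change of Ccl4 was -1.43 (SE 0.44), and -0.78 without HDACi 4b replicate 1. Ccl3 over Ccl4 was 4.21 (2.74 to 6.69) and 3.06 (2.19 to 4.37) in the controls and 6.35 (3.02 to 15.4) and 3.59 (2.12 to 6.38) in the treated libraries, so all 4 intervals overlapped.

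Not every chemokine did this. Ccl2, which attracts monocytes, stood at 12.2 and 24.8 RPKM in the control libraries and at 16.7 and 15.8 RPKM in the treated pair, so both treated libraries lay between the controls. Ccl6, a chemokine of rodent myeloid cells, stood at 2.95 and 1.61 RPKM in the control libraries and at 5.61 and 2.65 RPKM in the treated libraries, and had the order of Csf1r and Cx3cr1. Ccl7, named after its values were seen, had 4, 12, 1 and 7 reads in the control and then the HDACi 4b libraries.

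**Figure D4:**
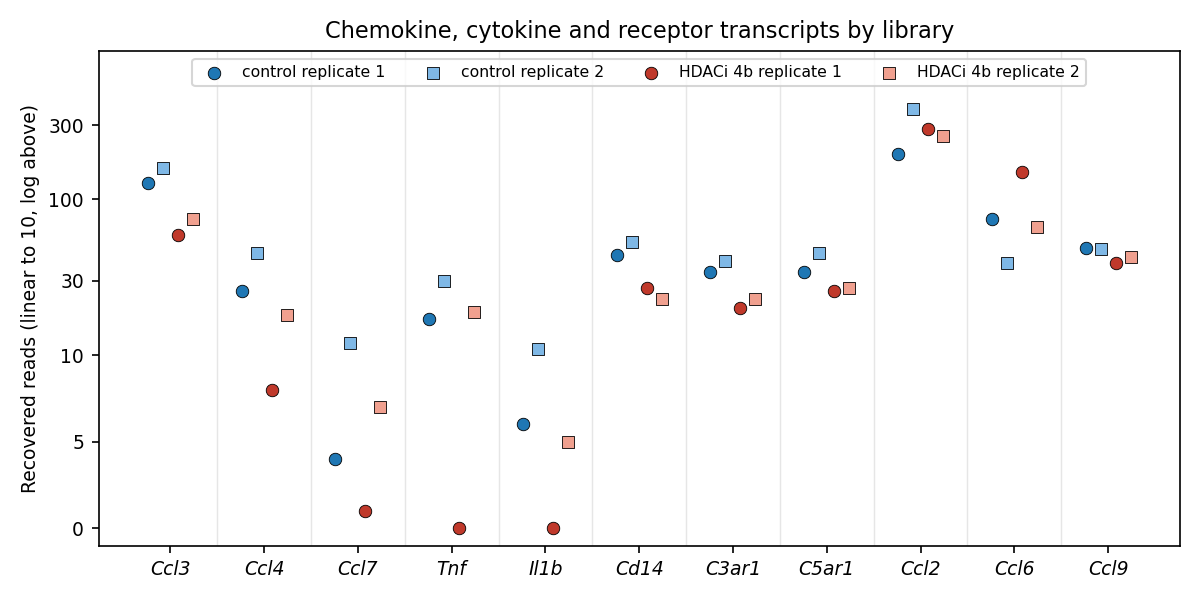
Recovered reads of chemokine, cytokine and receptor genes in the 4 libraries, 1 point per library, on an axis that is linear up to 10 reads and logarithmic above. Ccl3 had 127 and 160 reads in the controls against 59 and 75 after HDACi 4b, and Ccl4 had 26 and 45 against 8 and 18.

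Of the 18 listed genes of lipopolysaccharide sensing around Cd14, all 18 were measured, 3 were tested and 0 were called, with 2 positive and 1 negative log2 fold change, or 1 positive and 2 negative without control replicate 2. Ly96, which encodes the MD-2 subunit that holds lipopolysaccharide for TLR4, stood at 17.0 and 29.6 RPKM in the control libraries and at 27.0 and 23.9 RPKM in the treated pair, both treated libraries between the controls. After scaling both treated libraries lay above both controls for Ly96, at 26.2 and 25.9 against 18.7 and 25.7. Of the tested genes 13.6% did. Nfkbia, the inhibitor of NF-κB that NF-κB itself induces, stood at 18.5 and 15.8 RPKM in the control libraries. It stood at 12.8 and 11.8 RPKM in the treated libraries. Both treated libraries thus lay below both controls, as in 16.8% of the tested genes. Its log2 fold change was -0.40 (SE 0.22), and -0.12 without control replicate 1. Tlr4 itself had 6, 8, 16 and 2 reads. Tnf and Il1b, cytokines induced by lipopolysaccharide and named after their values were seen, had 17, 30, 0 and 19 reads and 6, 11, 0 and 5 reads. Both were at 0 in HDACi 4b replicate 1, the library with the least Ccl3, but the Tnf reads of HDACi 4b replicate 2 lay between those of the controls.

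Complement genes other than C1q did not share one pattern. Of 16 listed genes 13 were measured, 2 were tested and 0 were called, with 1 positive and 1 negative log2 fold change. Cd55 and Cd59a protect cells from their own complement, and had log2 fold changes of 0.09 (SE 0.18) and -0.30 (SE 0.17). C5ar1, the receptor for the anaphylatoxin C5a, had 34 and 45 reads in the controls against 26 and 27 after HDACi 4b. C3ar1, the receptor for C3a, named after its values were seen, had 34 and 40 against 20 and 23 reads. Neither receptor had groups that overlapped, on either scale, and nor did Cd59a. Of the tested genes, 16.8% had both HDACi 4b libraries below both controls in RPKM and 14.4% after scaling. C5ar1 and C3ar1 lay below the filter of the test, so these shares do not cover them.

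Most macrophage transcripts outside the 10 genes were also highest in HDACi 4b replicate 1. Of 24 listed genes 22 were measured, and 15 had at least 20 reads in the other 3 libraries together, a filter that HDACi 4b replicate 1 does not enter. Of these 15, 14 were highest in HDACi 4b replicate 1, whereas 23.7% of all such rows were, and Irf8 was the exception. After scaling the count was again 14, against 23.0%, with Fcgr1 as the exception. In 13 of the 15 the scaled level was more than 2-fold higher in HDACi 4b replicate 1 than in replicate 2, against 4.56% of such rows. The list was written with earlier results of these data known, so nothing is read from these counts. Summed over the 22 measured genes, the level was 40.6 and 24.6 RPKM in the control libraries and 84.0 and 22.3 RPKM in the treated pair.

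**Figure D5:**
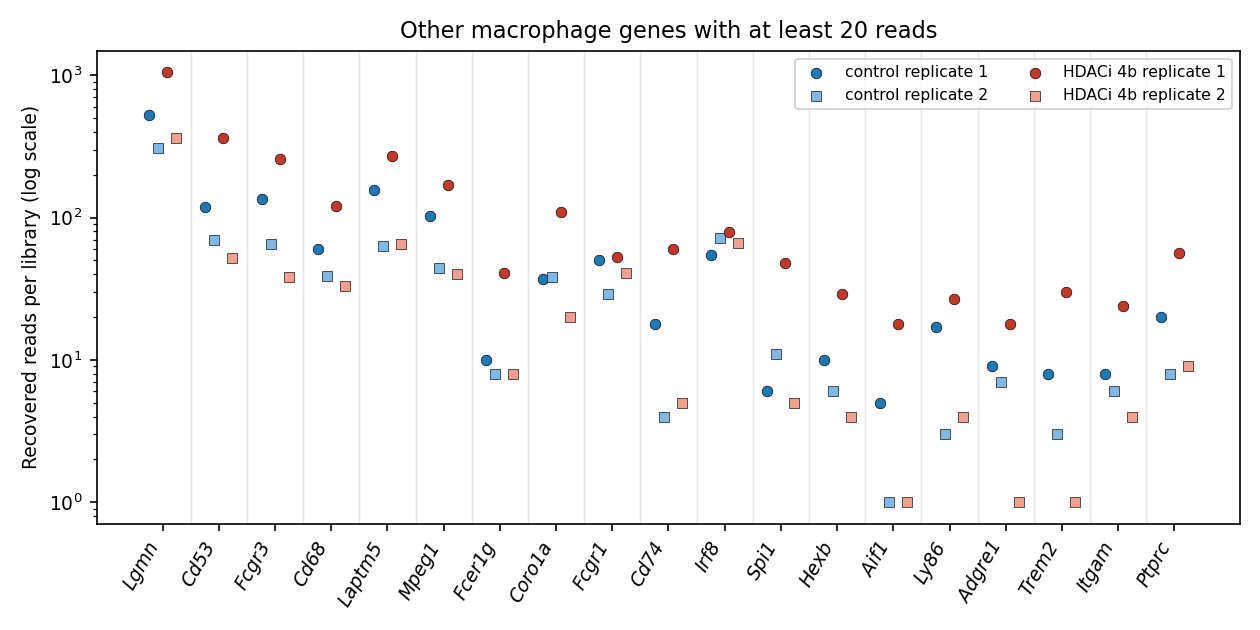
Recovered reads (log axis) of the 19 macrophage genes outside the 10 described ones that had at least 20 reads over the 4 libraries, 1 point per library, with groups by colour and replicates by symbol. In Cd53 HDACi 4b replicate 1 had 360 reads and the other libraries 52 to 118.

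Lgmn, a lysosomal protease, had the highest level in this list, at 15.9 and 9.90 RPKM in the controls and 30.3 and 11.0 RPKM in the treated libraries. Cd53, a tetraspanin of leukocytes, stood at 4.79 and 2.98 RPKM in the control libraries and at 13.9 and 2.12 RPKM in the treated libraries. Fcgr3, a receptor for the constant part of IgG, stood at 5.50 and 2.78 against 9.89 and 1.55 RPKM. The groups overlapped for all of them. Adgre1 and Ptprc, which encode the macrophage antigen F4/80 and the leukocyte antigen CD45 and were named after their values were seen, had 9, 7, 18 and 1 reads and 20, 8, 56 and 9 reads in the control and then the HDACi 4b libraries. Of the 10 genes of the list that were tested, 0 were called. Fcer1g, Coro1a and Cd74 reached the filter of the test only through HDACi 4b replicate 1. The other 7 had positive log2 fold changes with a median of 0.37, but without that library 1 of the 7 was positive and the median was -0.47. Without control replicate 2, 4 of the 10 were positive and the median was -0.07. Over all genes tested in each setting, 49.7% were positive with all libraries. The share was 54.7% without HDACi 4b replicate 1 and 46.4% without control replicate 2.

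Direction depended on the same libraries for the 10 described genes. With all libraries the log2 fold change was above 0 for 7 and below 0 for 3, with a median of 0.27. Without HDACi 4b replicate 1, or without control replicate 2, 1 was positive and 9 were negative, with medians of -0.79 and -0.51. Without control replicate 1 or HDACi 4b replicate 2, 7 were positive, with medians of 0.93 and 1.39. Across these settings Ccl3 ranged from -1.37 to -0.80 and Cd14 from -0.90 to -0.89, whereas each of the other 8 changed sign. C1qc ran from -1.49 to 2.85.

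Genes that act downstream of Csf1r and its ligand were described as a list of 8, of which 4 were tested, 0 were called and 4 had a negative log2 fold change with a median of -0.31. Over all tested genes 49.7% had a positive log2 fold change. The median of the list was -0.14 without control replicate 2 and -0.17, with 1 of 4 positive, without HDACi 4b replicate 1. Csf1, the ligand, stood at 2.16 and 3.19 RPKM in the control libraries and at 1.74 and 2.32 RPKM in the treated pair. Its highest library was thus control replicate 2, in which Csf1r was lowest. Of 12 listed cathepsins and lysosomal genes other than Ctss, 11 were measured, 7 were tested and 0 were called, with 6 positive log2 fold changes and a median of 0.05. Without HDACi 4b replicate 1, 1 of 7 was positive and the median was -0.36, and without control replicate 2, 2 of 8 were positive and the median was -0.07. Lamp1, a membrane protein of all lysosomes, lay at 42.0 to 50.4 RPKM in every library. Cst3, an inhibitor of cathepsins, was highest in HDACi 4b replicate 1, at 24.5 RPKM against 13.6 to 16.2 RPKM in the other 3 libraries.

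Neutrophil markers, of which 6 of 8 were measured and 0 were tested, summed to 2.30, 1.63, 4.45 and 0.593 RPKM in the control and then the HDACi 4b libraries. The sum was highest in HDACi 4b replicate 1 but rested on few reads, such as 5, 4, 14 and 3 for S100a8. Mpo and Mmp8 were highest in control replicate 2 instead. Erythroid markers summed to at most 0.511 RPKM, and theca and stroma markers to 0.712 to 1.24 RPKM. The lymphocyte list summed to 21.6 to 26.6 RPKM and was carried by Ms4a1, which encodes the B cell surface protein CD20 and stood at 21.1 to 26.1 RPKM. The part of macrophages or other cells in the levels of the 10 genes was not tested.

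The 5 genes whose profile over the 4 libraries was nearest to the mean of the C1q chains were Hexa, Siglech, Cyth4, Ifngr1 and Slc2a5. Their distances were 0.0993, 0.169, 0.211, 0.269 and 0.310 (Euclidean, centred log2 levels, 4 libraries). Siglech, Cyth4 and Slc2a5 reached the filter of 1 RPKM only through HDACi 4b replicate 1. All 5 were picked by this profile, so nothing is read from their levels. Hexa, the alpha subunit of the lysosomal enzyme beta-hexosaminidase, stood at 3.05 and 0.855 RPKM in the control libraries and at 5.82 and 0.747 RPKM in the treated libraries. Siglech, a sialic acid binding lectin of microglia and plasmacytoid dendritic cells, had 68, 15, 153 and 17 reads. Those nearest to Ccl3 were Gm11520, Gm17163, Gm25395, Gm13778 and 2610528J11Rik, at distances of 0.216 to 0.313. They had 3 to 39 reads per library, so their likeness rests on few reads.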

How the data were processed

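RNA of cultured denuded oocytes was measured in 4 libraries, grouped and numbered by their labels. The authors deposited 1 table of RPKM values with 26631 rows and 1 column per library, and 0 value columns remained unused. Bowtie 0.12.2 and build mm8 are named in the processing notes of the submitters. How reads were assigned to genes, and whether strand was used, is not given in the sources used here, and overlapping genes on opposite strands cannot be told apart. Gene names were matched to GENCODE M21, which gave coordinates on GRCm38 and exonic lengths.

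Whole reads were recovered from the RPKM steps for 100% of rows at a tolerance of 0.01 reads, 22661 rows by annotated length or as 0 and 3970 by ratios between libraries, Csf1r and Cd14 among the latter. They summed to 99.8% of the totals of 13478189 to 14903547 reads. A count of 3 reads equals 0.201 to 0.223 CPM. Amplified reads are not independent molecules, so counting intervals (exact, 95%) cover counting error only.

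Libraries were scaled by trimmed mean factors, which were 0.911 (control replicate 1), 1.15 (control replicate 2), 1.03 (HDACi 4b replicate 1) and 0.925 (HDACi 4b replicate 2). limma 3.58.1 in R 4.3.3 was fitted, with an intensity trend and no covariate, on log2(RPKM + 0.1) of 9461 genes averaging 1 RPKM or more, two-sided with Benjamini-Hochberg adjustment at 0.05. The pseudocount understates the change of low genes. Levels in RPKM and ratios between genes are given without the scaling. The fit was tested on simulated data with a fixed dispersion and no library effect. These libraries differ more widely than that, so nothing is read from it here. limma-voom on the recovered reads, other scalings, pseudocounts and filters, a replicate block and each library left out were the alternatives, and signs within lists without each library, the order of libraries after scaling, and a filter on reads without HDACi 4b replicate 1, were added after the data were seen. The 10 genes and all lists were chosen with earlier results of these data known. Named were these 10, the 3 genes with the highest mean RPKM of a list where they bear on the results, Lyz1, and the 5 nearest profiles to the C1q mean and to Ccl3. Csf1, Tlr4, Gdf9, Inha, Foxl2, Fcer1g, Coro1a, Cd74, Irf8, Fcgr1, Ccl9, Mpo and Mmp8 fall outside this rule and were named after their values were seen.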

Additional observations from a re-analysis of the deposited data

How the results depend on the processing

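Counts of genes called over all genes were 0 in both directions under each scaling, pseudocount and filter tried, with limma-voom on recovered reads and with the replicate block. Leaving out each library in turn gave 0 to 0 genes higher and 0 to 3 genes lower, and the 3 (Krt18, Calcoco2 and Gm22107, none of the 10) were called without HDACi 4b replicate 2. Whether same-numbered libraries share more than a number is not stated. The correlation between their deviations from the group means was 0.05, a value over all tested genes and not of the 10. With a replicate block the SE of the log2 fold change was 0.25 for C1qa and 0.33 for C1qc, against 1.04 and 1.49 without it. It was 0.20 for Ccl3 and 0.27 for Cd14, against 0.22 and 0.25. The replicate block gave 0 genes higher and 0 lower, and 165 and 166 at an unadjusted p under 0.05, against 136 and 132 without it.

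With all 4 libraries the log2 fold change of Ccl3 was -1.16 to -0.98 and that of Cd14 -0.96 to -0.58 over the settings, lowest in size with a pseudocount of 1. Of 120 alternative values for the 10 genes, fits with a library left out included, 115 moved by less than the replicate spread. The other 5 were of Cd14, whose scaled replicates were nearly equal. That spread was so wide for C1qc that moves from 0.68 to -1.49 or 2.85 stayed within it, so nothing is read from the count. Leaving out 1 library changed the sign of 8 of the 10 genes, Ccl3 and Cd14 being the exceptions. A lone library in a group was assumed to vary like the others.

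Few reads lie behind Ccl7, Il1b, Tlr4, Ccl4, Cd14 and the neutrophil markers. With 2 libraries per group, the treatment and the difference between single libraries cannot be told apart for genes whose replicates differ as widely as C1qa and C1qc. If the libraries of a group came from the same pool of oocytes, treatment and pool cannot be told apart for any gene, Ccl3 and Cd14 included.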
